A study of Mus musculus with 10 samples.

Results

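Solute carriers are membrane proteins that move nutrients, ions, metals and metabolites across the cell surface and across the membranes of organelles. The transporters described here are the genes whose symbol has the form Slc, a family number, the letter a and a member number, and whose estimated read counts sum to 500 or more over the 10 libraries. Of 334 genes with such a symbol among the 54752 in the files, 97 met that rule, 232 lay under the sum (24 of them at 0 in every library), and 5 (Slc2a1, Slc2a3, Slc16a1, Slc16a3 and Slc7a1) were left out by name. The rule used summed abundance and no difference between days. The members just inside it were Slc36a4 with a sum of 504 and Slc38a3 with 515, and the transporters just outside were Slc39a8 with 489 and Slc30a6 with 477. In 19 of the 97 the sum fell under 500 once the day with the highest counts was taken away, so these met the sum only with that day included. Such a gene need not vary much between days, as counts also follow library size: Slc35a1, 1 of the 19, varied by 1.17-fold. Of the transporters named below, Slc1a4, Slc4a8, Slc5a6, Slc7a3, Slc25a30, Slc29a3, Slc30a2, Slc35a1, Slc36a4, Slc37a4, Slc38a3 and Slc40a1 are among these 19, and counts of calls are given below also for the other 78. The 97 belong to 34 families and were sorted into 12 substrate classes from textbook knowledge of the families.

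The libraries came from primary mouse embryonic fibroblasts, connective tissue cells taken at E13.5 and used at passage 2. The embryos had 129S4/SvJaeJ mothers, and fathers that carried an Oct4-GFP transgenic allele on a CBA/CaJ × C57BL/6J background. All cells, those of D0 included, had spent 48 h with retroviruses for the factors Sall4, Jdp2, Glis1 and Esrrb. They were then kept in a medium named iCD3 for 0, 1, 3, 5 or 7 days (D0, D1, D3, D5 and D7), with 2 libraries a day from what the series text calls independent experiments. No uninfected cells and no infected cells in another medium are among the libraries, so the factors, the medium and time in culture cannot be told apart.

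Cells take up amino acids through carriers that either exchange them with other amino acids or couple uptake to sodium or protons. Zinc is held in balance by the Slc30 family, which exports it from the cytosol, and the Slc39 family, which brings it in. The Slc25 family sits mainly in the inner mitochondrial membrane, where it trades ADP for ATP and passes phosphate, citrate, glutamate and cofactors. All its members are counted below as mitochondrial carriers, also Slc25a17, which is known from peroxisomes. Transporter genes are known to respond to nutrient supply, and a move to a new medium changes that supply together with cell state.

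Library totals ran from 2176457 to 4335931 estimated counts in replicate 1 and from 1329377 to 1492105 in replicate 2, so 3 counts stood for 0.692 to 2.26 CPM, read counts scaled to a common library size. The mean fragment length implied by the files was 136 to 159 bases in replicate 1 and 199 to 204 in replicate 2. Summed fibroblast markers (8 genes) went from 9110 and 9480 CPM at D0 to 507 and 758 at D7, and summed pluripotent cell markers (8 genes) went from 0.919 and 7.37 CPM to 1580 and 1250. Endothelial markers (5 genes) went from 19.3 and 23.5 CPM to 122 and 130, and extraembryonic endoderm markers (6 genes) from 18.4 and 22.1 to 93.3 and 77.0. Skeletal muscle markers (5 genes) went from 228 and 311 CPM to 15.7 and 28.7. Macrophage markers (6 genes) were at 5.24 to 17.9 CPM, and keratinocyte, neuronal, adipocyte and erythroid markers were each at or under 11.5 CPM, with Hbb-bs and Hbb-bt at 0 throughout. These marker shifts run beside every transporter value below and their part in it was not tested. In bulk libraries fewer cells of a type and less RNA per cell cannot be told apart.

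The transporters as a group were more often highest on D1 or D3 than tested genes at large, though not in every class. Of the 97, 58 (59.8%) had their highest mean CPM on D1 or D3, against 33.7% of the 7990 tested genes that met the same sum of 500 and 31.4% of all 12752 genes tested. Replicate 1 alone gave 57 and replicate 2 alone 53. On deposited TPM, a scale per transcript length, the share was again 59.8% of the members, against 33.0% of the genes with the same sum. Among the 78 members that kept the sum without their highest day it was 65.4%, against 34.6% of genes chosen in the same way. The lowest mean fell on D0 for 35 members and on D7 for 29, with no like shares of all tested genes given here.

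**Figure D1:**
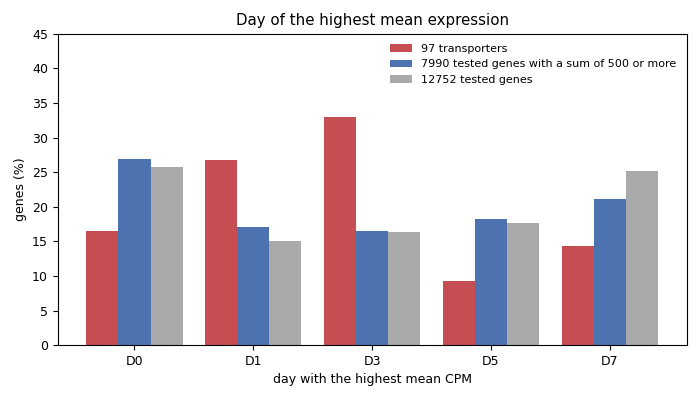
Share of genes (vertical axis, %) by the day of their highest mean CPM (horizontal axis), for the 97 transporters (red), the 7990 tested genes with the same sum (blue) and all 12752 tested genes (grey). The red bars reach 26.8% on D1 and 33.0% on D3, where the blue bars stand at 17.1% and 16.5%.

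The higher levels were present by D1. In 46 of 97 transporters (47.4%) both D1 libraries lay above both D0 libraries, against 24.4% of all tested genes, and in 15 (15.5%) both lay below, against 24.5%. Both D3 libraries lay above both D0 libraries in 45 (46.4%) and below in 22 (22.7%), against 27.7% of all tested genes in each direction. Between D3 and D7 the order turned: in 52 transporters (53.6%) both D7 libraries lay below both D3 libraries, against 27.4% of all tested genes, and in 17 (17.5%) above, against 29.0%. Among the 78 39 lay above and 10 below at D1, and 46 lay below and 12 above between D3 and D7. The median log2 change of the 97 was 0.22 from D0 to D1, where that of all tested genes was 0.01, and -0.31 from D3 to D7, where that of all tested genes was 0.02. From D0 to D7, 35 (36.1%) lay higher without overlap and 30 (30.9%) lower, against 34.0% and 30.4% of all tested genes. The median over that span was 0.05, close to the 0.06 of all tested genes. The mean level on a member's highest day was 2.21-fold that on its lowest day for the median member, 1.17-fold for the least variable, and over 4-fold for 18. No like folds for all tested genes are given here.

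A gene is called here when its adjusted p is under 0.05 in edgeR's quasi-likelihood F test, with Benjamini-Hochberg adjustment over all 12752 tested genes. Its p reflects only how far these 10 libraries spread, which may be technical. All 97 transporters were tested, and 33 were called for a change on any day, beside 19.1% of all tested genes. Among the 78 that kept the sum without their highest day 26 (33.3%) were called. A fit that took the replicate number as a block called 52, beside 34.9% of all tested genes. The 33 fell to 13 without D0 replicate 1, 12 without D0 replicate 2, 21 without D1 replicate 2, 19 without D3 replicate 2, 14 without D7 replicate 1 and 20 without D7 replicate 2. In 12 transporters the call held whichever library was left out: Slc1a5, Slc7a3, Slc7a7, Slc16a6, Slc16a10, Slc25a24, Slc26a2, Slc30a2, Slc36a1, Slc38a3, Slc43a2 and Slc45a4. Of these 12, Slc7a3, Slc30a2 and Slc38a3 met the sum only through their highest day. There were 56 transporters called in none of the comparisons. No like shares of all tested genes are given for the 56, for the 12 or, here and below, for fits with a library left out.

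From D0 to D1, 11 transporters rose and 0 fell, and among the 78 that kept the sum without their highest day 8 rose (10.3%) and 0 fell. Of all tested genes, 4.52% were called in that step (2.41% rose and 2.12% fell). With the replicate block 23 rose and 3 fell, where 10.6% of all tested genes were called (5.27% rose and 5.32% fell). The 11 became 3 without D0 replicate 1, 5 without D0 replicate 2 or without D1 replicate 1, and 18 with each D5 library left out in turn. From D0 to D3, a comparison added after the data were seen, 19 rose and 5 fell, beside 12.1% of all tested genes (6.21% rose and 5.94% fell). Among the 78, 14 rose and 4 fell. With the block 27 rose and 8 fell, beside 21.5% (10.5% and 11.0%). That total of 24 became 14 without D0 replicate 1 or D3 replicate 2 and 10 without D0 replicate 2. From D3 to D7, also added, 5 rose and 9 fell, beside 5.37% of all tested genes (3.07% rose and 2.31% fell). Among the 78, 3 rose and 9 fell. With the block 7 rose and 26 fell, beside 18.4% (9.5% and 8.93%). Those 14 became 7 with each D0 library left out in turn, 1 without D3 replicate 1, 3 without D7 replicate 2, 0 without D3 replicate 2 or without D7 replicate 1, and 22 with each D5 library left out in turn. Of the 11 that rose by D1, 5 fell from D3 to D7, and in that comparison, which shares no library with the first, 1 of the 11 had a positive log2 change. No like shares are given here for all tested genes that rose by D1, so this course cannot be called particular to transporters.

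The steps between later neighbouring days gave few calls. From D1 to D3 edgeR called 0 transporters, with 15 at an unadjusted p under 0.05, beside 0.0549% of all tested genes called. DESeq2 called 3 there and the fit with the replicate block 4 (Slc7a3, Slc22a17, Slc30a2 and Slc45a4, all higher), beside 1.62% of all tested genes (0.831% higher). From D3 to D5 edgeR called 0, with 15 at an unadjusted p under 0.05, beside 0.0706% of all tested genes. DESeq2 called 3 and the block fit 5, beside 3.3% (2.26% higher and 1.04% lower): Slc7a3 higher, and Slc16a6, Slc36a1, Slc43a2 and Slc45a4 lower. From D5 to D7 edgeR called 0 (13 at an unadjusted p under 0.05), where 0.0% of all tested genes were called. DESeq2 and the block fit also called 0 transporters there, beside 0.157% of all tested genes with the block. Without D5 replicate 2 edgeR called 2 in each of the steps from D1 to D3 and from D3 to D5, and without D5 replicate 1 it called 2 from D1 to D3 and 3 from D5 to D7. Limma on log2(TPM + 1) called 0 in each of the 3 steps.

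**Figure D2:**
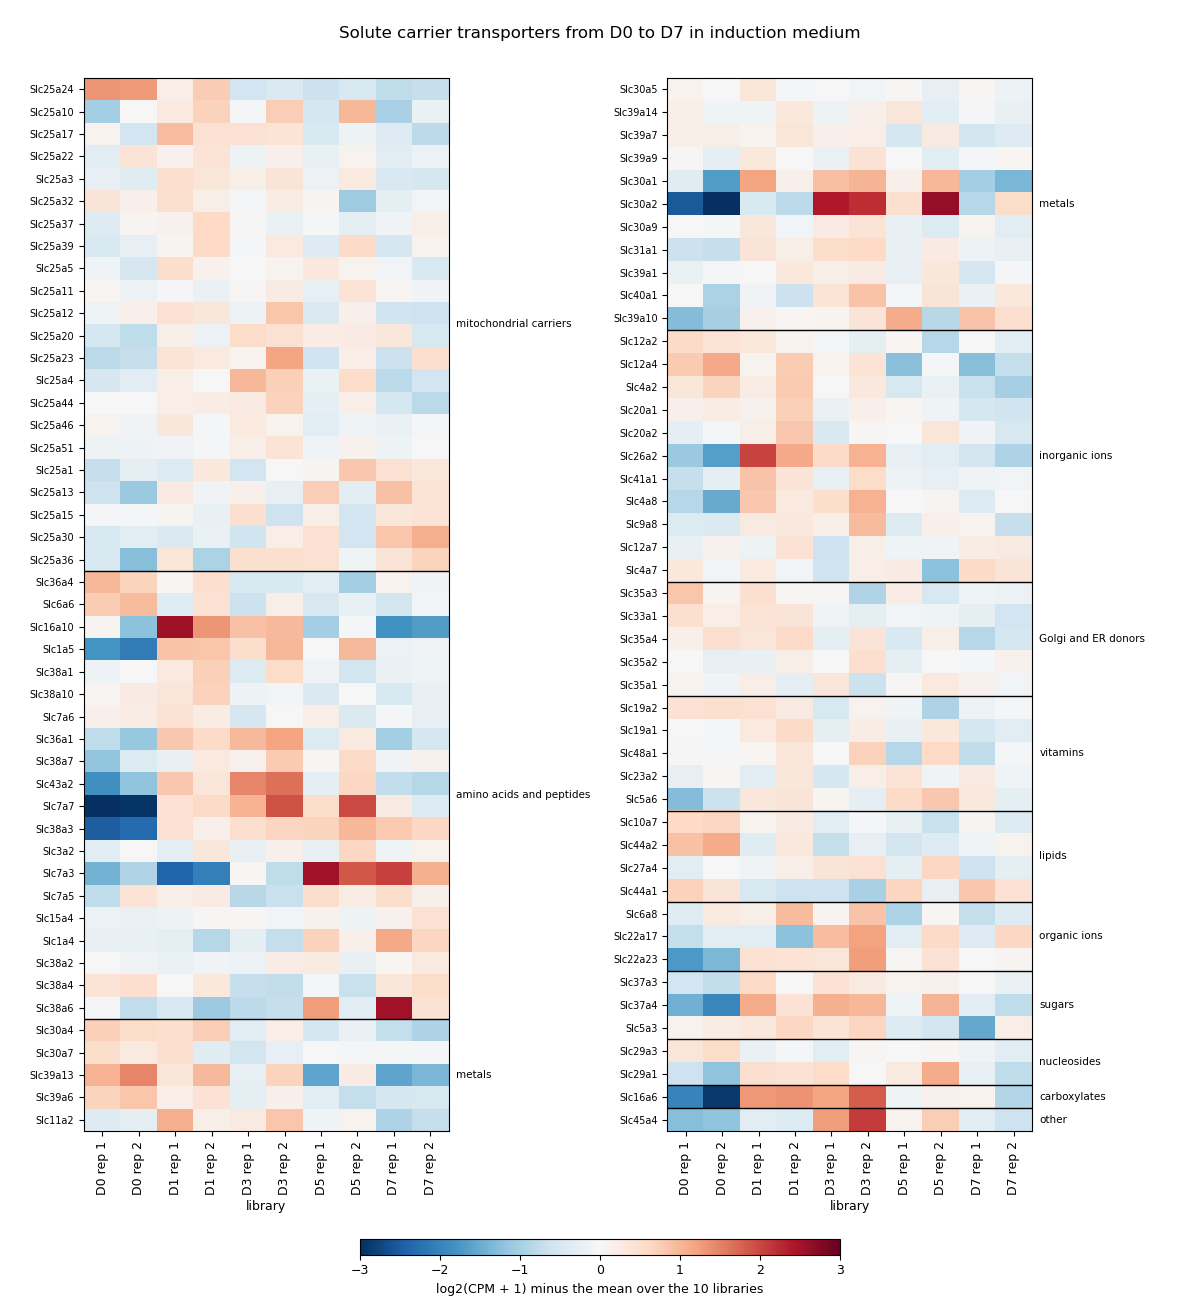
Transporters (rows, 93 of the 97, grouped by substrate class and ordered by the day of their highest mean) in the 10 libraries (columns), coloured by log2(CPM + 1) minus the mean of the row. Red is above and blue below the mean of the row, and 56 of the 93 rows have their highest mean CPM on D1 or D3. Slc7a7 and Slc38a3 are dark blue in both D0 columns.

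Summed over the 97, the deposited TPM was 4820 ± 37 at D0 (SD, n = 2 here and below), 6660 ± 41 at D1, 6420 ± 628 at D3, 5410 ± 201 at D5 and 5000 ± 296 at D7. The libraries of D1 and D3, at 5970 to 6860, all lay above those of the other days, at 4790 to 5550. Mitochondrial carriers made up the largest share of that sum, with 2280 ± 69.3 TPM at D0, 3380 ± 252 at D1, 3370 ± 140 at D3, 2790 ± 63.6 at D5 and 2370 ± 66.2 at D7. Carriers of amino acids and peptides had 832 ± 53.8 TPM at D0 and 1070 ± 97.6 at D1. They had 948 ± 215 at D3, 940 ± 95.5 at D5 and 1080 ± 206 at D7. Both D7 libraries, at 1220 and 933, lay above both D0 libraries, at 794 and 870. D3 replicate 1, at 797, and D5 replicate 2, at 873, lay close to the D0 libraries. Metal transporters had 607 ± 4.07 TPM on D0, 726 ± 2.67 on D1 and 525 ± 3.41 on D7. The 4 carriers of lipids, choline and bile acids took the other course, with 126 ± 2.67 TPM at D0, 62.7 ± 6.98 at D3 and 92.8 ± 5.68 at D7. Mitochondrial messenger RNAs took 2.21% and 2.81% of the counts at D0 and 3.2% to 5.48% in the other libraries, and their part in these values was not tested.

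**Figure D3:**
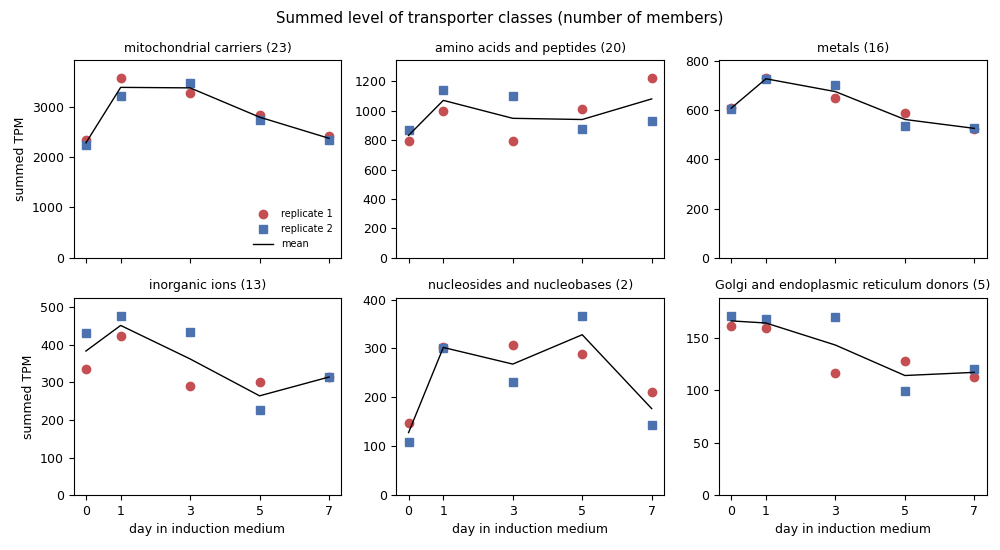
Summed deposited TPM (vertical axis, from 0) by day in the induction medium (horizontal axis) for 6 substrate classes. Red circles are replicate 1, blue squares replicate 2, and the line joins the means. The 23 mitochondrial carriers stand at 3200 to 3560 TPM on D1 and at 2230 and 2330 TPM on D0.

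Carriers of amino acids and peptides, 20 members, held the most transporters called on any day: 11, or 55.0% beside 19.1% of all tested genes. From D0 to D1, 6 rose and 0 fell (30.0% called, beside 4.52% of all tested genes). Between D0 and D7, 6 rose and 1 fell (35.0%, beside 17.9%). Slc38a3 among the first 6, and Slc38a3, Slc7a3 and Slc1a4 among the second, met the sum only through their highest day. Values below are CPM in the order D0, D1, D3, D5 and D7. Slc7a7 (chr14:54369442-54417780, minus strand), the light chain of an exchanger of cationic for neutral amino acids, had 3.42, 63.6, 98.3, 69.6 and 56.3 in replicate 1 and 5.24, 70.4, 179, 189 and 34.8 in replicate 2. It shares 7.0% of its exon bases with Oxa1l on the other strand, and its estimated counts were not whole in 7 libraries. Oxa1l had an edgeR log2 change of 1.09 from D0 to D1 (adjusted p = 0.116), and its part in these values was not tested. Both D0 libraries of Slc7a7, with 7 counts each, lay under every later library, and the libraries of D3 and D5 spread widely. Its log2 change was 5.02 ± 0.61 (SE; adjusted p = 0.000683) at D3 and 3.44 ± 0.61 (SE; adjusted p = 0.00338) at D7.

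Slc38a3 (chr9:107650634-107669530, minus strand), a sodium-coupled carrier of glutamine, had 1.96, 21.3, 22.2, 24.9 and 27 in replicate 1 and 2.25, 17.1, 24.6, 31.7 and 24.3 in replicate 2. It was near the limit of detection at D0, with 4 and 3 counts, and stood at a like level in all 8 later libraries. The log2 change was 3.46 ± 0.44 (SE; adjusted p = 0.000804) at D3 and 3.6 ± 0.44 (SE; adjusted p = 0.00046) at D7. Slc1a5 (chr7:16781340-16798274, plus strand), an exchanger of neutral amino acids that carries glutamine, had 39.1, 249, 199, 137 and 122 in replicate 1 and 31.4, 247, 277, 270 and 129 in replicate 2. The D0 libraries were the lowest, D1 the highest mean, and D7 lay between without overlap with either. From D0 to D1 its log2 change was 2.8 ± 0.37 (SE; adjusted p = 0.00249).

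Slc43a2 (chr11:75531694-75577575, plus strand), a carrier of large neutral amino acids, rose and came back, with 11.7, 78.5, 125, 36.7 and 26.3 in replicate 1 and 18.7, 57.6, 141, 69.6 and 24.3 in replicate 2. The D3 libraries stood above all others, and those of D7 at a level just above D0. Its log2 change was 3.14 ± 0.4 (SE; adjusted p = 0.000845) from D0 to D3 and -2.38 ± 0.38 (SE; adjusted p = 0.0125) from D3 to D7. The second of these calls was lost without D3 replicate 1 (adjusted p = 0.0558), D3 replicate 2 (0.102), D7 replicate 1 (0.121), D7 replicate 2 (0.0607) or by limma (0.124). Slc16a10, which carries aromatic amino acids, had 55.8, 312, 96.3, 25.1 and 14.1 in replicate 1 and 21.7, 132, 104, 50.3 and 15.8 in replicate 2. D1 replicate 1 held the highest value, and both D7 libraries lay under both D0 libraries. The test over all days gave an adjusted p of 0.00247, and the rise to D1 was 2.5 ± 0.52 (SE; adjusted p = 0.0214). That rise was no longer called without D0 replicate 1 (adjusted p = 0.0515), D0 replicate 2 (0.186), D1 replicate 1 (0.18) or by limma (0.0616).

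Slc36a1, a proton-coupled carrier of small amino acids found on lysosomes, had 42.1, 126, 143, 54.1 and 35 in replicate 1 and 32.2, 108, 165, 88.2 and 50.6 in replicate 2. All libraries of D1 and D3 lay above all libraries of the other days. The log2 change from D0 to D3 was 2.05 ± 0.34 (SE; adjusted p = 0.00317). Its promoter window (RefSeq, GRCm38.p6, chr11:55204090-55204389, plus strand, from 250 bases before to 50 after the annotated start) is shown because it holds the E-box letters CACGTG 2 times, at -31 and -3 from the start. CACGTG, which reads the same on both strands, is bound by Myc and by Tfeb, a factor of lysosomal genes. The letters, in capitals, occur in 13 of 101 windows of 70 transporters (12.9%) and in 7.15% of all 32851 windows, and a match is a description of the sequence only.
Slc36a1: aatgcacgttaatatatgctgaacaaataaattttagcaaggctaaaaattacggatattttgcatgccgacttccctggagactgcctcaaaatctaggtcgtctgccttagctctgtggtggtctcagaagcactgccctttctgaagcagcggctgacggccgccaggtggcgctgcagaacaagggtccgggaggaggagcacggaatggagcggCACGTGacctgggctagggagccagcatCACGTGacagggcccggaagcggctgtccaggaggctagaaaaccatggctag

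Slc7a3 (chrX:101079210-101086020, minus strand), a carrier of arginine and lysine, was low on the first days and high on the last. It had 3.91, 1.52, 12.3, 73.4 and 53.5 in replicate 1 and 5.99, 2.13, 6.71, 46.4 and 26.3 in replicate 2. All 4 libraries of D5 and D7 lay above all 6 earlier ones, and D1 was lowest, with 5 and 3 counts. The fitted log2 change from D0 to D7 was 3.06 ± 0.52 (SE; adjusted p = 0.00273), and the test over all days gave an adjusted p of 0.000479. Slc38a6, a family member of less settled function, had 136, 101, 80.2, 335 and 808 in replicate 1 and 83.1, 64.7, 85.7, 110 and 188 in replicate 2. D7 replicate 1 was 808 CPM and D7 replicate 2 was 188, so that the day's mean of 498 had an SD of 439. Its log2 change from D0 to D7 was 2.18 ± 0.66 (SE; adjusted p = 0.0418), a call that was lost without D0 replicate 1 (adjusted p = 0.117), D0 replicate 2 (0.223), D3 replicate 1 (0.0607), D3 replicate 2 (0.0632), D7 replicate 1 (0.503) or by limma (0.126). Its estimated counts were not whole in any of the 10 libraries, as RSEM gives where reads could be placed in more than 1 way.

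Slc6a6, the taurine carrier, was the amino acid carrier that fell from D0 to D7. It had 719, 330, 269, 304 and 288 in replicate 1 and 822, 569, 480, 362 and 396 in replicate 2, and the D0 libraries stood above all others. The log2 change was -1.17 ± 0.37 (SE; adjusted p = 0.0492), and the call was lost without D0 replicate 1 (adjusted p = 0.14), D0 replicate 2 (0.213), D1 replicate 1 (0.0545), D1 replicate 2 (0.0536), D7 replicate 1 (0.291), D7 replicate 2 (0.104) or under RLE scaling (0.056). Slc1a4, an exchanger of neutral amino acids such as serine, had 19.1, 18.3, 18.4, 37.4 and 50.9 in replicate 1 and 19.5, 12.1, 13.4, 25.5 and 36.1 in replicate 2. The libraries of D5 and D7 lay above all earlier ones. Its log2 change of 1.19 ± 0.37 (SE; adjusted p = 0.0463) was no longer called without D0 replicate 1 (adjusted p = 0.186), D0 replicate 2 (0.179), D1 replicate 2 (0.0505), D3 replicate 2 (0.0595), D7 replicate 1 (0.3), D7 replicate 2 (0.0653), by DESeq2 (0.0847), by limma (0.155) or with no filter (0.057).

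The most abundant amino acid carrier per length was Slc3a2, the heavy chain that brings Slc7 light chains to the surface, with a mean of 142 TPM over the 10 libraries. It varied by 1.35-fold between its highest and lowest day and was called in no comparison. Slc7a5, a light chain for large neutral amino acids, varied by 2.21-fold and Slc38a2, a sodium-coupled carrier, by 1.26-fold. Neither was called without the block, and with it Slc7a5 was higher at D7 than at D3 (adjusted p = 0.0315). The cystine carrier Slc7a11 lay under the sum, at 326.97, and was not a member. Of 12 genes of the amino acid response, 1 rose from D0 to D7 (Asns, asparagine synthetase) and 1 fell from D0 to D1 (Pck2), which is 8.33% in each, beside 17.9% and 4.52% of all tested genes. The Asns call was lost without D0 replicate 1 (adjusted p = 0.0717), and the Pck2 call without any of the libraries of D0 and D1 (0.0579 to 0.157). From D3 to D7, 4 of the 12 rose (Asns, Aldh18a1, Cth and Vldlr), beside 3.07% of all tested genes. All 4 calls were lost without D3 replicate 2 (0.0947 to 0.172) or without D7 replicate 1 (0.0835 to 0.154). The 12 had a median log2 change of -0.86 from D0 to D1, and the 20 amino acid carriers one of 0.24.

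**Figure D4:**
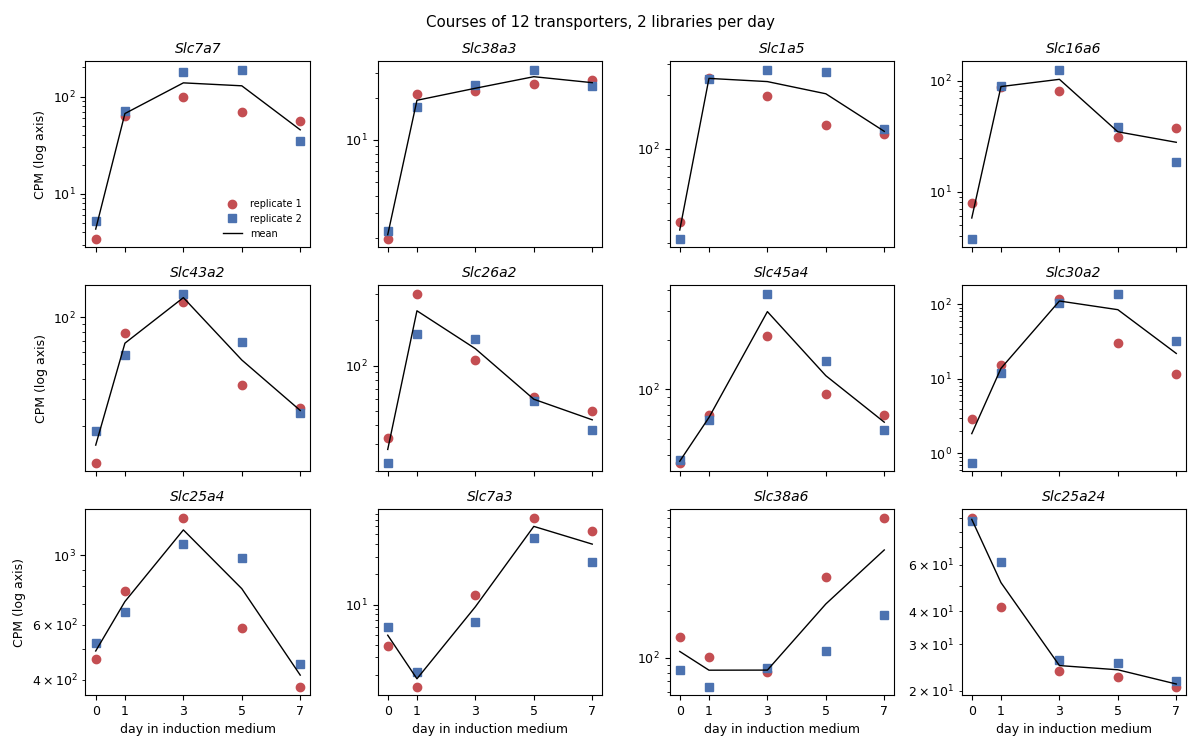
CPM (vertical log axis, with its own range in each panel) by day in the induction medium (horizontal axis) for 12 transporters. Red circles are replicate 1, blue squares replicate 2, and the line joins the means of the day. The courses differ: Slc38a3 stayed up after D1, Slc45a4 peaked on D3, Slc7a3 rose after D3 and Slc25a24 fell.

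The single carboxylate carrier was Slc16a6 (chr11:109450855-109473598, minus strand), a member of the monocarboxylate family. It had 7.83, 87, 80.2, 31.2 and 37.2 in replicate 1 and 3.74, 89.6, 125, 37.9 and 18.4 in replicate 2. The D0 libraries were the lowest, and the libraries of D1 and D3 lay above all those of D5 and D7. The log2 change was 3.86 ± 0.48 (SE; adjusted p = 0.002) from D0 to D1 and 4.07 ± 0.48 (SE; adjusted p = 0.000578) from D0 to D3. It shares 21.5% of its exon bases with Amz2 on the other strand, and no source used here says whether strand entered the counting. Amz2 had a log2 change of -0.06 from D0 to D1 (adjusted p = 0.984). Slc45a4 (chr15:73577424-73645762, minus strand), whose substrate is not settled, had 35.7, 69.4, 212, 94.2 and 69.8 in replicate 1 and 37.4, 65.5, 382, 148 and 56.5 in replicate 2. The D3 libraries stood above all others, and D0 was lowest. From D0 to D3 its log2 change was 3.02 ± 0.37 (SE; adjusted p = 0.000687), and from D3 to D7 -2.22 ± 0.35 (SE; adjusted p = 0.0127). The fall was no longer called without D3 replicate 2 (adjusted p = 0.107), D7 replicate 1 (0.118) or D7 replicate 2 (0.0649).

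Metal transporters, 16 members, had 7 called on any day (43.8%, beside 19.1% of all tested genes) and 5 called between the ends (31.2%, beside 17.9%), of which 2 rose and 3 fell. They held both families of zinc carriers. Slc30a2 (chr4:134343181-134354484, plus strand), which loads zinc into vesicles, had 2.94, 15.5, 117, 30.4 and 11.5 in replicate 1 and 0.748, 12.1, 103, 138 and 32.2 in replicate 2. Its D0 values rest on 6 and 1 counts, the D3 libraries were close to each other, and those of D5 and D7 spread by several-fold. The log2 change from D0 to D3 was 5.73 ± 0.89 (SE; adjusted p = 0.00228). At D7 it was 3.33 ± 0.92 (SE; adjusted p = 0.0296), a call lost without D0 replicate 1 (adjusted p = 0.0939), D0 replicate 2 (0.156) or D7 replicate 2 (0.113).

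Slc30a1, the exporter of zinc across the cell surface, had 22, 66, 54.4, 32.1 and 13.49 in replicate 1 and 8.23, 32, 58.9, 58 and 10.5 in replicate 2. Both D7 libraries lay under both D3 libraries, and at D0 replicate 1 was above replicate 2. The edgeR log2 change from D0 to D3 was 1.85 ± 0.5 (SE; adjusted p = 0.0349), a call lost without D0 replicate 2 (adjusted p = 0.219), D3 replicate 1 (0.114), D3 replicate 2 (0.115) or by limma (0.111). Slc30a4, an exporter into endosomes, went down, with 54.8, 47.2, 26, 22.9 and 19.8 in replicate 1 and 49.4, 55.5, 38, 28.6 and 17.1 in replicate 2. Its D7 libraries lay under all others. The log2 change from D0 to D7 was -1.49 ± 0.32 (SE; adjusted p = 0.00891), and the call was lost without D0 replicate 1 (adjusted p = 0.0741), D7 replicate 1 (0.0688), D7 replicate 2 (0.0756) or by limma (0.0614).

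Among zinc importers, Slc39a13, a Golgi and endoplasmic reticulum protein needed in connective tissue, had 88.6, 54.8, 35.7, 13.53 and 13.49 in replicate 1 and 118, 83.2, 67.1, 50.3 and 15.8 in replicate 2. The D0 libraries were the highest, and D5 replicate 1 lay with the D7 libraries while D5 replicate 2 lay near D3. Its log2 change from D0 to D7 was -2.82 ± 0.57 (SE; adjusted p = 0.00659), lost without D7 replicate 1 (adjusted p = 0.0728). Slc39a6 fell and its close relative Slc39a10 rose. Slc39a6 had 96.9, 69.7, 50, 47.8 and 42.4 in replicate 1 and 108, 82.5, 67.1, 36.3 and 42.7 in replicate 2, a log2 change from D0 to D7 of -1.26 ± 0.29 (SE; adjusted p = 0.0125), and a call lost without D0 replicate 1 (adjusted p = 0.0665), D0 replicate 2 (0.0998), D7 replicate 1 (0.11), D7 replicate 2 (0.087) or by limma (0.106). Slc39a10 had 63.6, 173, 169, 346 and 290 in replicate 1 and 78.6, 164, 208, 88.9 and 225 in replicate 2, a log2 change of 1.86 ± 0.5 (SE; adjusted p = 0.0267), and a call lost without D0 replicate 1 (adjusted p = 0.16), D0 replicate 2 (0.109), D7 replicate 1 (0.134) or by limma (0.0854). The difference between the 2 genes was not tested, but their D0 and D7 libraries did not overlap in either gene.

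The promoter windows of 4 zinc carriers are shown because zinc carriers can answer to a metal-sensing factor that binds metal response elements. The letters searched were TGCACNC and TGCGCNC on both strands, which differ at the fourth letter, and matches are in capitals. They come from RefSeq for GRCm38.p6, 5′ to 3′ on the strand of the gene. Slc30a1 is at chr1:191906531-191906830 (plus), Slc30a2 at chr4:134343216-134343515 (plus), Slc30a4 at chr2:122702614-122702913 (minus) and Slc39a13 at chr2:91070266-91070565 (minus).
Slc30a1: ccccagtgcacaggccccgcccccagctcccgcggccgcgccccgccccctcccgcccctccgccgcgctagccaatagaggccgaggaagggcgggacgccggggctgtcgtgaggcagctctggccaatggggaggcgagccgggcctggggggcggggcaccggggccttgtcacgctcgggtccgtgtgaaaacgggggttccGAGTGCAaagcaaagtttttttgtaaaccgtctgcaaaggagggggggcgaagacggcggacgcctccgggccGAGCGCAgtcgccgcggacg
Slc30a2: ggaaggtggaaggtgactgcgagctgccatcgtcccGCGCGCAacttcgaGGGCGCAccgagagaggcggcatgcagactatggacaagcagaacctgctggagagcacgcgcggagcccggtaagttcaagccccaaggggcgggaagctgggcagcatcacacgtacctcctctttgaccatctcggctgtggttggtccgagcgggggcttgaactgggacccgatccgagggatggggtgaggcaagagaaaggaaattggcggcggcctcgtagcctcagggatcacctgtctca
Slc30a4: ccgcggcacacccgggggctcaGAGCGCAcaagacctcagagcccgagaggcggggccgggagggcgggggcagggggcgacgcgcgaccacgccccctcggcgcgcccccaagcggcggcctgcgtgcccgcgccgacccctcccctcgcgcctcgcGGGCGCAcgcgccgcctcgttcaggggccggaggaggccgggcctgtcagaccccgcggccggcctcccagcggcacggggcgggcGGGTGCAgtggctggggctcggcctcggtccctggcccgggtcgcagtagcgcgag
Slc39a13: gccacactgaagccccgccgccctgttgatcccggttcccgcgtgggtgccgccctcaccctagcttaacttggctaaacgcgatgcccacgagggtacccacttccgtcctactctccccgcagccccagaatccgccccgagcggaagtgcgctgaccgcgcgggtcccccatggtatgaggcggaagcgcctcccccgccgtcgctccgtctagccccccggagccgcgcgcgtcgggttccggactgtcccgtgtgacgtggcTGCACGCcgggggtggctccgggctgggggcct
All 4 windows held at least 1 match: Slc30a1 and Slc30a2 2 each, Slc30a4 3 and Slc39a13 1. The 4 were picked by hand, so their matches do not stand for zinc carriers in general. Most other zinc carriers among the members held neither form or had no window. TGCACNC was in 11.9% of transporter windows and 12.6% of all windows, and TGCGCNC in 27.7% and 15.4%. The letters AAGGTCA, bound by Esrrb, 1 of the added factors, were in 0 of the 101 transporter windows and in 4.72% of all windows. The AP-1 letters TGANTCA, related to those that Jdp2 binds, were in 3.96% and 7.81%, and the letters TGACGTCA in 1.98% and 1.79%.

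Copper and iron are carried by other members of the class. Slc31a1, the copper importer, had 89, 181, 200, 119 and 125 in replicate 1 and 86.1, 158, 210, 164 and 118 in replicate 2, with all libraries of D1 and D3 above those of D0. Its log2 change from D0 to D3 was 1.22 ± 0.27 (SE; adjusted p = 0.0136), lost without D0 replicate 1 (adjusted p = 0.0881), D0 replicate 2 (0.106) or D3 replicate 2 (0.0603). Slc40a1, the iron exporter, varied by 2.12-fold, and Slc39a1, a zinc importer of the cell surface, by 1.39-fold, and neither was called. Slc39a7 was the most abundant metal carrier per length, at a mean of 137 TPM, and shares 80.7% of its exon bases with Gm20427. Of 8 genes of the metal response, 3 rose from D0 to D3, beside 6.21% of all tested genes: Mt1, a metallothionein that binds zinc, Tfrc, the transferrin receptor, and Fth1, a ferritin chain. The Mt1 log2 change was 3.17 ± 0.74 (SE; adjusted p = 0.0178), and the call was lost without D0 replicate 1 (0.143), D0 replicate 2 (0.0723) or D3 replicate 2 (0.0781). The Fth1 call was lost without any of the libraries of D0 and D3 (0.0597 to 0.138), and the Tfrc call without any of the libraries of D0, D1 and D3 and without D7 replicate 1 (0.0523 to 0.266).

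Mitochondrial carriers, taken as the Slc25 family with the peroxisomal Slc25a17 included, were the largest class, with 23 members. In 14 of the 23 (60.9%) both D1 libraries lay above both D0 libraries, against 24.4% of all tested genes, and in 1 (Slc25a24) below, against 24.5%. The highest mean was on D1 or D3 in 17 of 23 (73.9%), against 31.4% of all tested genes. Their median log2 change from D0 to D1 was 0.52, beside 0.01 for all tested genes. EdgeR called 0 of them in that step, beside 4.52% of all tested genes, with 7 at an unadjusted p under 0.05, and DESeq2 and limma called 0. With the replicate block 5 rose, among them Slc25a10, Slc25a13, Slc25a17 and Slc25a23. From D0 to D7, 2 rose and 1 fell, a smaller share than the 17.9% of all tested genes, and with the block 5 rose and 1 fell, beside 28.5%. Slc25a30, 1 of the 2, met the sum only through its highest day.

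The 3 most abundant transporters per length were of this class: Slc25a5 at a mean of 706 TPM, Slc25a3 at 648 and Slc25a4 at 569, followed by the nucleoside carrier Slc29a1 at 233 and Slc25a39 at 224. Slc25a4 and Slc25a5 are forms of the ADP/ATP carrier and Slc25a3 is the phosphate carrier. Genes of this kind have near-identical copies in the genome among which reads can be split, which makes values less certain where it happens. Estimated counts that were not whole appeared in 1 library for Slc25a5, 1 for Slc25a3 and 0 for Slc25a4. Slc25a4 had 466, 766, 1320, 584 and 380 in replicate 1 and 523, 657, 1090, 980 and 448 in replicate 2. The D3 libraries were the highest, and those of D7 lay under those of D0. Its log2 change was 1.28 ± 0.31 (SE; adjusted p = 0.0221) from D0 to D3, lost without D0 replicate 1 (adjusted p = 0.138), D0 replicate 2 (0.106) or D3 replicate 1 (0.0989). From D3 to D7 it was -1.54 ± 0.31 (SE; adjusted p = 0.0254), lost without D3 replicate 1 (adjusted p = 0.0889), D3 replicate 2 (0.115), D7 replicate 1 (0.216) or D7 replicate 2 (0.0963). Slc25a5 varied by 1.57-fold and Slc25a3 by 1.89-fold between days, and neither was called without the block. The form Slc25a31, known from germ cells, lay under the sum at 32 counts and was not a member.

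Slc25a24 (chr3:109123149-109168457, plus strand), the carrier of ATP-Mg and phosphate, ran against its class. It had 90.5, 41.4, 23.7, 22.5 and 20.7 in replicate 1 and 87.6, 61.2, 26.1, 25.5 and 21.7 in replicate 2. Both D0 libraries lay above all others, and from D3 on all 6 libraries stood between 20.7 and 26.1 CPM. The log2 change was -1.84 ± 0.31 (SE; adjusted p = 0.00321) at D3 and -2.07 ± 0.31 (SE; adjusted p = 0.00137) at D7. Slc25a13, an aspartate and glutamate carrier, had 39.1, 73.3, 67.9, 103 and 113 in replicate 1 and 27.7, 56.9, 51.4, 47.9 and 81.5 in replicate 2, with both D7 libraries above both D0 libraries. Its log2 change from D0 to D7 was 1.54 ± 0.4 (SE; adjusted p = 0.0225), lost without D0 replicate 1 (adjusted p = 0.0753), D0 replicate 2 (0.161), D7 replicate 1 (0.162) or by limma (0.0692). For Slc25a30, whose values were 15.2, 15.5, 13.8, 29.7 and 38.9 in replicate 1 and 16.5, 18.5, 24.6, 13.9 and 46.7 in replicate 2, the change was 1.43 ± 0.43 (SE; adjusted p = 0.0406), lost without D0 replicate 1 (adjusted p = 0.181), D0 replicate 2 (0.152), D7 replicate 1 (0.117) or D7 replicate 2 (0.139).

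Carriers of inorganic ions, 13 members, held 2 that rose from D0 to D1 (15.4%, beside 4.52% of all tested genes called), of which Slc4a8 met the sum only through its highest day. From D0 to D7 1 rose and 2 fell (23.1%), near the 17.9% of all tested genes. Slc26a2, the sulfate carrier that supplies cartilage matrix synthesis, had 32.8, 301, 109, 61.4 and 49.6 in replicate 1 and 22.5, 162, 150, 58 and 37.5 in replicate 2. D1 was highest and D0 lowest, with no overlap with another day. The log2 change was 3.06 ± 0.38 (SE; adjusted p = 0.00212) from D0 to D1. Slc4a8, a sodium-driven chloride and bicarbonate exchanger, had 11.3, 38, 31, 21.5 and 15.7 in replicate 1 and 6.74, 26.3, 44.7, 22.4 and 21 in replicate 2. Both D0 libraries lay under all others. Its rise to D1 was 1.82 ± 0.4 (SE; adjusted p = 0.0272), lost without D0 replicate 1 (adjusted p = 0.0989), D0 replicate 2 (0.236), D1 replicate 1 (0.22) or by limma (0.119).

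Slc12a4, a potassium chloride cotransporter that helps to set cell volume, had 124, 75.8, 76.1, 29.2 and 28.5 in replicate 1 and 157, 122, 95.4, 68 and 42.7 in replicate 2, and a log2 change from D0 to D7 of -2.0 ± 0.43 (SE; adjusted p = 0.00891), lost without D0 replicate 2 (adjusted p = 0.0633) or D7 replicate 1 (0.105). Its D7 libraries lay under both D0 libraries. Slc4a2, a chloride and bicarbonate exchanger, had 91, 81.6, 69.9, 50.2 and 44.2 in replicate 1 and 112, 122, 87.9, 61.1 and 34.8 in replicate 2, and its D7 libraries lay under all others. The log2 change was -1.35 ± 0.31 (SE; adjusted p = 0.0131), lost without D0 replicate 1 (adjusted p = 0.0518), D0 replicate 2 (0.109), D7 replicate 1 (0.0694), D7 replicate 2 (0.111) or by limma (0.294). Slc20a1, a phosphate carrier and the most abundant of the class per length at 70.6 TPM, was lower at D7 than at D0 only with the block (adjusted p = 0.0408, and 0.102 without it). The sodium, potassium and chloride cotransporter Slc12a2 varied by 1.79-fold and was not called.

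The class of sugars and polyols had 3 members, each with both D1 libraries above both D0 libraries, as 24.4% of all tested genes had. Slc37a4, the glucose 6-phosphate carrier of the endoplasmic reticulum, had 5.87, 39.3, 37.5, 15.9 and 13.9 in replicate 1 and 3.74, 24.2, 35.8, 36.3 and 9.86 in replicate 2. Its D0 libraries, with 12 and 5 counts, were the lowest, and its D7 libraries lay above them. The fitted log2 change from D0 to D1 was 2.69 ± 0.52 (SE; adjusted p = 0.0144), lost without D0 replicate 1 (adjusted p = 0.0959), D0 replicate 2 (0.144) or D1 replicate 1 (0.111). From D0 to D3 it was 2.88 ± 0.52 (SE; adjusted p = 0.00487), lost without D0 replicate 2 (adjusted p = 0.0529). Slc37a3 was the most abundant of the class per length, at 48.0 TPM. Its log2 change from D0 to D3 was 1.04 ± 0.29 (SE; adjusted p = 0.0407), lost without D0 replicate 1 (adjusted p = 0.147), D0 replicate 2 (0.225), D3 replicate 1 (0.161), D3 replicate 2 (0.0942), D7 replicate 1 (0.071), D7 replicate 2 (0.0651), by limma (0.28) or with no filter (0.0663).

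Organic ion and hormone carriers, 4 members, all had their highest mean on D1 or D3 and all had both D7 libraries below both D3 libraries, as 27.4% of all tested genes had. Slc22a23, an orphan of the organic ion family, had 7.34, 36.8, 34.5, 27.1 and 26.5 in replicate 1 and 9.73, 35.6, 64.8, 36.3 and 28.3 in replicate 2. Its D0 libraries lay under all 8 others. The log2 change from D0 to D3 was 2.53 ± 0.41 (SE; adjusted p = 0.00263), lost by limma (adjusted p = 0.0996). From D0 to D1 it was 2.1 ± 0.41 (SE; adjusted p = 0.0148), lost without D0 replicate 1 (adjusted p = 0.151), D0 replicate 2 (0.0911), D1 replicate 1 (0.0878) or by limma (0.379). From D0 to D7 it was 1.69 ± 0.41 (SE; adjusted p = 0.0154), lost without D0 replicate 1 (adjusted p = 0.125), D0 replicate 2 (0.0612), D7 replicate 1 (0.0718), D7 replicate 2 (0.0509) or by limma (0.419). Slc6a8, the creatine carrier, was the most abundant of the class per length, at 81.5 TPM. With the block it was called over all days (adjusted p = 0.0049, and 0.197 without it) and from D3 to D7 (0.0111).

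Of the 2 nucleoside carriers, Slc29a1, which equilibrates nucleosides across the cell surface, had 146, 313, 329, 272 and 190 in replicate 1 and 96.5, 303, 229, 489 and 133 in replicate 2. The libraries of D1, D3 and D5 all lay above those of D0 and D7. The test over all days gave an adjusted p of 0.0362, lost without D0 replicate 1 (adjusted p = 0.078), D0 replicate 2 (0.147), D1 replicate 1 (0.0629), D1 replicate 2 (0.0604), D7 replicate 1 (0.0651) or D7 replicate 2 (0.0788). Slc29a3, a lysosomal relative named because it is the only other member of the class, varied by 1.65-fold and was not called.

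Carriers of lipids, choline and bile acids, 4 members, held 2 of the 5 transporters that fell from D0 to D3, beside 5.94% of all tested genes. The others were Slc25a24 and the amino acid carriers Slc36a4 and Slc38a4, at -1.37 and -1.18 on the log2 scale. Both calls were lost without any of the libraries of D0 and D3 (adjusted p = 0.108 to 0.227) or by limma (0.13 and 0.0737). That of Slc36a4 was lost also without any library of D1 or D7 (0.0521 to 0.0671), by DESeq2 (0.0655) or with no filter (0.0554), and that of Slc38a4 also without D7 replicate 2 (0.0501). From D0 to D1 edgeR called 0 of the 4, with 2 at an unadjusted p under 0.05, and DESeq2 and limma called 0. With the block 2 of the 3 that fell in that step, Slc44a1 and Slc44a2, were of this class, beside 5.32% of all tested genes. Slc44a2, a choline transporter-like protein, had 130, 54.2, 42.7, 47.8 and 64.2 in replicate 1 and 153, 88.2, 59.6, 53.4 and 75.6 in replicate 2. Both D0 libraries lay above all others, and both D7 libraries lay above both D3 libraries. The edgeR log2 change from D0 to D3 was -1.48 ± 0.32 (SE; adjusted p = 0.013), lost without D0 replicate 1 (adjusted p = 0.0595), D0 replicate 2 (0.109) or D3 replicate 1 (0.132). From D0 to D7 it was -1.02 ± 0.31 (SE; adjusted p = 0.0459), a call lost without any of the libraries of D0, D1, D3 and D7 (0.0508 to 0.267), under RLE scaling (0.052), with no filter (0.0648) or by limma (0.243). Slc44a1, its relative and the choline carrier, had 70.5, 30.7, 27.8, 68.1 and 77 in replicate 1 and 56.9, 27.7, 21.6, 36.3 and 59.1 in replicate 2. Its log2 change was -1.35 ± 0.36 (SE; adjusted p = 0.0327) from D0 to D3 and 1.45 ± 0.36 (SE; adjusted p = 0.0434) from D3 to D7. The fall was lost without D0 replicate 1 (adjusted p = 0.212), D0 replicate 2 (0.111), D1 replicate 1 (0.0595), D1 replicate 2 (0.0598), D3 replicate 1 (0.127), D3 replicate 2 (0.168), D7 replicate 2 (0.0609) or by limma (0.104), and the rise without any of the libraries of D0, D1, D3 and D7 (0.0639 to 0.273) or by limma (0.121). Slc27a1, a fatty acid carrier, lay under the sum at 267.5 and was not a member.

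Carriers of vitamins and cofactors (5 members) and the Golgi and endoplasmic reticulum carriers of sugar nucleotides and other donors (5 members) had 0 called in each comparison by edgeR, DESeq2 and limma. At an unadjusted p under 0.05 edgeR had 1 vitamin carrier and 2 donor carriers from D0 to D7, and 1 of each over all days. With the block, 1 vitamin carrier rose from D0 to D7 (Slc5a6, the biotin and pantothenate carrier, adjusted p = 0.0431, and 0.0803 without it) and 2 donor carriers fell: Slc35a4 (0.00586, and 0.0593 without) and Slc33a1, the acetyl-CoA carrier (0.0455, and 0.0963 without). Slc33a1 shares 32.0% of its exon bases with Gm26850. The folate carrier Slc19a1 varied by 1.87-fold, the heme carrier Slc48a1 by 1.68-fold and the CMP-sialic acid carrier Slc35a1 by 1.17-fold.

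Between the ends of the course, 13 transporters rose and 8 fell, which is 21.6% of the 97, beside 17.9% of all tested genes (9.15% rose and 8.71% fell). Among the 78 that kept the sum without their highest day 8 rose and 8 fell (20.5%). The other 5 of the 13 that rose (Slc1a4, Slc7a3, Slc25a30, Slc30a2 and Slc38a3) met the sum only with their highest day included. With the block 18 rose and 11 fell, where 28.5% of all tested genes were called (14.8% rose and 13.7% fell). The 21 became 8 without D0 replicate 1, 6 without D0 replicate 2, 6 without D7 replicate 1 and 12 without D7 replicate 2. Calls for Slc7a7 and Slc25a24 held whichever library was left out, as did those for Slc7a3 and Slc38a3 of the 5. Those for Slc1a5 and Slc16a6, both higher, were lost without D0 replicate 2 (adjusted p = 0.0618) for the first and without D0 replicate 2 (adjusted p = 0.0771) or D7 replicate 1 (0.11) for the second. Among the 13 that rose, Slc7a3 and Slc38a6 had log2 changes at D3 of 1.04 and -0.41, while Slc38a3, Slc7a7 and Slc16a6 had 3.46, 5.02 and 4.07.

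**Figure D5:**
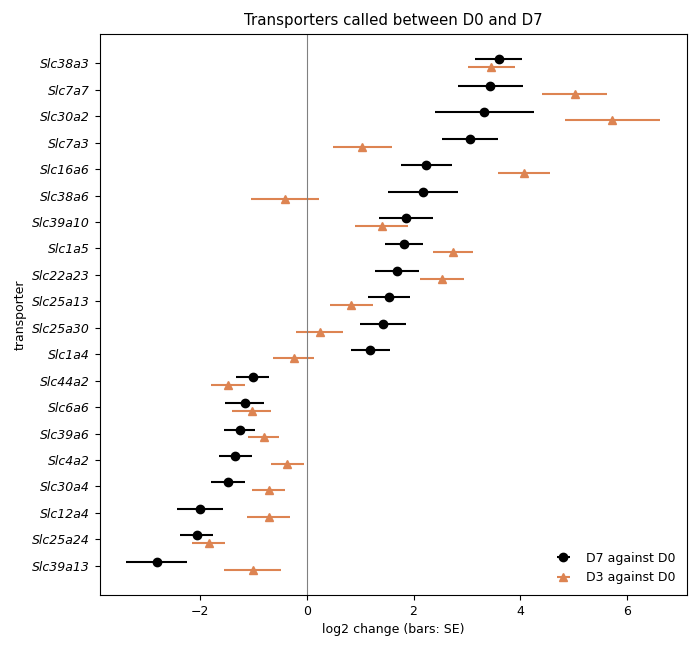
Log2 change (horizontal axis, bars are the SE) of 20 of the 21 transporters called between D0 and D7 (vertical axis), from D0 to D7 (black circles) and from D0 to D3 (orange triangles). Slc7a7, Slc16a6 and Slc30a2 have larger values at D3 than at D7, and Slc7a3 has a larger value at D7.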

How the data were processed

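Libraries of 5 days, with 2 replicates each, were compared. Per the submitters' processing notes the authors used bcl2fastq, Bowtie2, RSEM and mm10, with no versions named there. The deposited values, per the file headers, are expected counts, TPM and FPKM per gene. The deposited FPKM were not used. Symbols came from GENCODE annotation by gene identifier, and 29 identifiers without a symbol, with 0.000602% to 0.00179% of the counts, stayed out.

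Expected counts were rounded and tested with edgeR 4.0.16 (R 4.3.3): TMM scaling, a minimum count of 10 in filterByExpr, 12752 genes, day as a factor and quasi-likelihood F tests. CPM use the TMM library sizes. Alternatives were DESeq2 1.42.0, RLE scaling, no filter, limma 3.58.1 on log2(TPM + 1), a replicate block and leaving out each library. In every pair of days the replicate differences correlated by 0.273 to 0.436. Replicate 1 had more counts and shorter implied fragments than replicate 2 on every day. A shared experiment and a shared technical difference cannot be told apart here. The submitters' labels give 2 library kits and 2 sequencing kits for all samples without saying which library had which. The test was checked on simulated data.

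The transporters, classes and lists were chosen with earlier results of these data known. Genes were named by rule: the largest called changes from D0 to D7 and in each step, the smallest adjusted p over all days, the highest TPM in each class and over all members, the neighbours of the sum of 500, and a panel. Slc1a4, Slc4a8, Slc22a17, Slc25a10, Slc25a17, Slc25a23, Slc29a3, Slc31a1, Slc33a1 and Slc38a4 were named after their values were seen. Some genes that entered the counts are not reported here by name.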

Additional observations from a re-analysis of the deposited data

How the results depend on the processing

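With the replicate number as a block, the transporters called went from 33 to 52 over all days, from 11 to 26 from D0 to D1, from 14 to 33 from D3 to D7, and from 0 to 4 and 5 in the steps from D1 to D3 and from D3 to D5. No call was lost with the block. Limma on log2(TPM + 1) called 18 over all days, 11 from D0 to D7, 6 from D0 to D1 and 3 from D3 to D7. With no filter 17 were called from D0 to D1, 4 from D1 to D3, 6 from D3 to D5 and 3 from D5 to D7. DESeq2 called 3 in each of the steps from D1 to D3 and from D3 to D5. Of the 67 transporters with a sum of 1000 or more, 7 were called from D0 to D1. For that sum, limma, DESeq2 and the fit with no filter, no like shares of all tested genes are given here. Leaving out 1 library gave 12 to 40 over all days, 6 to 25 from D0 to D7, 3 to 18 from D0 to D1, 10 to 29 from D0 to D3, 0 to 22 from D3 to D7, 0 to 2 in each of the steps from D1 to D3 and from D3 to D5, and 0 to 3 from D5 to D7. For the named transporters' changes from D0 to D7, leaving out 1 library kept 449 values on their side of the threshold, while 58 lost it and 3 gained it. The cause of these moves was not tested. No result changed direction under these alternatives. Replicate 2 had fewer counts than replicate 1 on every day, which limits the precision of genes with few counts.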

Other observations

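Carriers that work beside these transporters but bear other symbols were taken as a list of 41 genes in the files, 37 of them tested. From D0 to D1, 4 of the 37 rose and 0 fell in edgeR (10.8%, beside 4.52% of all tested genes). None of these 4 calls held without D0 replicate 1, where their log2 changes were 1.28 to 2.09. The median log2 change of the 37 was 0.39 in that step, beside 0.01 for all tested genes. From D3 to D7 it was -0.29, beside 0.02, and 0 rose and 2 fell (5.41%, beside 5.37%). Each of the 2 falls was no longer called when any library of D3 or D7 was left out. From D0 to D7, 4 rose and 5 fell in edgeR, which is 24.3% of the 37, beside 17.9% of all tested genes (9.15% rose and 8.71% fell). Slc35f2 had 1.96 and 4.49 CPM at D0 in replicates 1 and 2 and 46.3 and 32.9 at D7, a log2 change of 3.70 ± 0.47 (SE; adjusted p = 0.000615). Ucp2, a proton and metabolite carrier of mitochondria, had 61.2 and 62.9 CPM at D0 and 202 and 183 at D7, a log2 change of 1.64 ± 0.26 (adjusted p = 0.00208). Both of these calls from D0 to D7 held whichever library was left out. Slco3a1, of the organic anion carriers, had 21.0 and 36.7 CPM at D0 and 2.39 and 4.60 at D7, a log2 change of -3.14 ± 0.62 (adjusted p = 0.00586). That call was lost without D0 replicate 2 (0.0503) or D7 replicate 1 (0.0847).

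Of 3 carrier chaperones, 1 was called from D0 to D7, and it was higher, beside 9.15% of all tested genes. Emb, embigin, the chaperone called, brings monocarboxylate carriers to the cell surface. It had 20.1 CPM at D0 in replicate 1 and less in replicate 2. It had 43.8 and 22.8 CPM at D1, 244 and 176 at D3 and 216 and 123 at D7. Its log2 change from D0 to D7 was 3.32 ± 0.43 (SE; edgeR adjusted p = 0.000655), and no single library ended the call.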
